A study of Mus musculus with 58 samples.

Results

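The integrated stress response was followed in mouse striatum through 10 genes of the ATF4 pathway. They are the transcription factors Atf4, Atf5 and Ddit3, the eIF2 phosphatase subunits Ppp1r15a and Ppp1r15b, the pseudokinase Trib3, and the metabolic genes Asns, Psat1, Phgdh and Pck2. They were chosen by name, as genes of that pathway of which several carry upstream open reading frames (uORFs). All 10 were found among the 54532 genes of the RNA-seq tables and among the 18411 genes of the ribosome footprint and lysate RNA tables.

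In the integrated stress response, kinases that sense unfolded protein, amino acid shortage, viral RNA or lack of heme phosphorylate the initiation factor eIF2, which lowers the supply of initiator tRNA complexes and slows most protein synthesis. Messages with suitable uORFs in their leaders, of which Atf4 is the textbook case, are then translated better, because ribosomes that would have been caught at the uORFs reach the coding sequence. ATF4 in turn switches on genes for amino acid synthesis and transport, tRNA charging and feedback, and in brain the pathway is known for its role in synaptic plasticity and memory.

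The study measured striatum of B6129S mice from a pair of heterozygous lines. In the 3g line, del/+ mice carry CRISPR/Cas9 mutations that put a premature stop codon into Taok2, Sez6l2 and Mvp on 1 chromosome, and in the 16p11.2 line, del/+ mice carry a hemideletion of the whole 16p11.2-equivalent region, which holds those genes too. Each line had its own wild-type (wt) controls, which per the study's methods were adult littermates. The mutations are constitutive, so every cell type of the striatum carries them, and the tissue was taken in bulk.

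RNA-seq covered 32 libraries, 4 for each line, genotype and sex, with library totals of 11711099 to 65529807 counts. Ribosome footprints and RNA from the same lysates covered 13 male animals, 3 wt and 3 del/+ of the 3g line and 4 wt and 3 del/+ of the 16p11.2 line. Lysate RNA totals were 15102576 to 19122488 counts, but footprint totals were only 342052 to 678130, so each of the 10 genes had between 0 and 66 footprints in an animal. The unit of level is CPM, a count scaled to a common library total after TMM normalization, and levels are compared between samples for 1 gene, never between genes. The labels do not say how the RNA-seq replicates were spread over litters, so p-values measure the spread between these libraries. In bulk tissue, fewer cells of a type and less RNA per cell cannot be told apart.

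Of the targeted genes, Sez6l2 matched every genotype label. It was at 126 to 162 CPM in 16p11.2 del/+ against 289 to 399 CPM in its wt, and at 189 to 225 CPM in 3g del/+ against 274 to 336 CPM in its wt. Taok2 was at 83.2 to 94.9 CPM in 16p11.2 del/+ against 153 to 196 CPM in wt, but overlapped in the 3g line (156 to 197 and 176 to 182 CPM). Mvp was at 2.26 to 4.13 CPM in 16p11.2 del/+ against 6.05 to 7.93 CPM in wt, and overlapped in the 3g line (5.17 to 7.45 and 7.20 to 8.84 CPM). Of 8 markers of striatal projection neurons, among them the dopamine receptor genes Drd1 and Drd2, 0 were at 0 throughout any group, and the summed level was 4311 to 8183 CPM in RNA-seq. However, 3 RNA-seq libraries stood apart from others with the same label. On a scale set by 14959 genes, with 0 at the 3g wt females and 1 at the 16p11.2 wt females, the library labelled 3g wt male 17 lay at 0.901 while the other 3g libraries lay at -0.0755 to 0.158. The library labelled 16p11.2 del/+ male 4 lay at 0.195, while the other 16p11.2 libraries lay at 0.848 to 1.2. Its Taok2 was still within the 16p11.2 del/+ range given above, which lies below every 3g library. Its Mvp was at 3.87 CPM, also below every 3g library, so it carried the deletion that its label names. For 1 of the 16p11.2 del/+ females, number 1, Xist was at 0.462 CPM and the Y-linked Ddx3y at 38.5 CPM, whereas every other female library had at least 326.0 CPM of Xist. In the RNA-seq comparisons that rest on these libraries, the main fold changes and counts are given with and without them. Values for which no such second value is given include these libraries and may change without them.

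The first question was how well each message was covered by ribosomes in wt striatum, measured as footprint CPM divided by lysate RNA CPM in the same animal. The wt animals are numbered 1 to 3 in the 3g line and 1 to 4 in the 16p11.2 line, in ascending order of their label numbers. A ratio of 1 is about the level of an average gene, since TMM scaling sets the bulk of genes in both assays equal. The region of each gene that was counted is not given in the sources used here, so footprints on a uORF and footprints on the coding sequence could not be separated.

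Atf4 (ENSMUSG00000042406, chr15:80255184-80257545 on GRCm38.p6), the main transcription factor of the response and the classic uORF-controlled gene, had an average ratio. Its ratios were 1.00, 1.25 and 1.08 in the 3g wt animals, and 0.798, 0.880, 0.982 and 1.39 in the 16p11.2 wt animals. They rested on 20 to 42 footprints an animal. Over the 7 wt animals, the log2 ratio was 0.14 (SE 0.123, adjusted p = 0.358 by edgeR's quasi-likelihood test), at percentile 53.7 of the 14313 genes tested. Atf5 (ENSMUSG00000038539, chr7:44812256-44816658), a related factor with uORFs of the same arrangement, lay at log2 -0.01 (SE 0.224, adjusted p = 0.980). Its ratio spanned 0.408 to 1.93 in the 3g wt animals, on 4 to 18 footprints, but only 0.727 to 0.840 in the 16p11.2 wt animals.

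Ddit3 (ENSMUSG00000025408, chr10:127290793-127296291), which encodes the stress factor CHOP and carries a uORF that holds back its translation at rest, had fewer footprints for its RNA than most genes. Its ratios were 0.425, 0.143 and 0.158 in the 3g wt animals and 0.411, 0.373, 1.24 and 0.0589 in the 16p11.2 wt animals. Animal 3 of the 16p11.2 line was therefore the only one of the 7 above 1. The footprint counts behind these ratios were 5, 2, 2, 4, 6, 17 and 1, against 337 to 393 lysate RNA counts an animal. The log2 ratio was -1.30 (SE 0.302, adjusted p = 0.000673), at percentile 10.9 of all genes. It was -1.07 without animal 4 of the 16p11.2 line and -1.96 without animal 3. A second gene model with the Ddit3 symbol (ENSMUSG00000116429) held 0 lysate RNA counts but up to 3 footprints a wt animal, and with both models summed the log2 ratio was -1.12, so the assignment of Ddit3 footprints is uncertain to that degree.

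**Figure D1:**
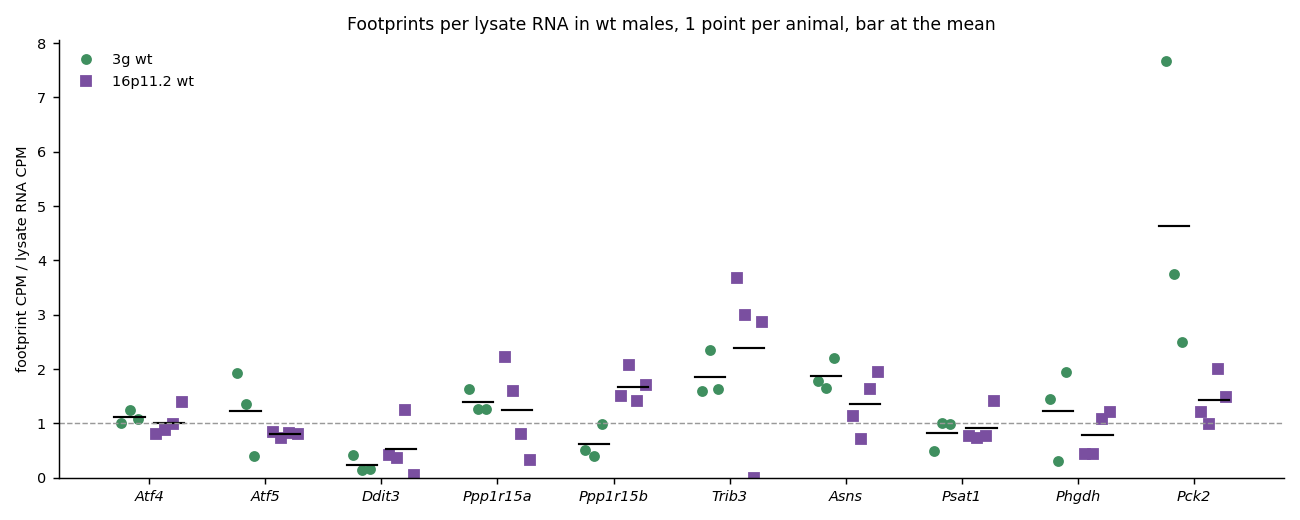
Footprint CPM over lysate RNA CPM (linear axis, no unit) for the 10 genes in the 7 wt males, 1 point per animal, green circles for the 3g line and purple squares for the 16p11.2 line, with a bar at each mean and a dashed line at 1. Ddit3 lay under 1 in 6 animals and Pck2 at 0.997 or above in every animal, while Atf4 lay at 0.798 to 1.39.

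The regulatory subunits that bring protein phosphatase 1 to eIF2 were not called in either direction over the 7 animals. Ppp1r15a (ENSMUSG00000040435, chr7:45522917-45526268), which encodes the stress-induced subunit GADD34, had ratios of 0.332 to 2.22 and a log2 ratio of 0.41 (SE 0.262, adjusted p = 0.181). Ppp1r15b (ENSMUSG00000046062, chr1:133131166-133139800), which encodes the constitutive subunit CReP, had a log2 ratio of 0.29 (SE 0.194, adjusted p = 0.206), but its lines lay apart. Its ratios were 0.503, 0.393 and 0.982 in the 3g wt animals and 1.51, 2.08, 1.40 and 1.70 in the 16p11.2 wt animals, so that every 16p11.2 value was above every 3g value. How many of all genes lay apart in this way was not counted. Lysate RNA of Ppp1r15b overlapped between the 3g wt (46.3 to 52.0 CPM) and the 16p11.2 wt animals (44.98 to 59.3 CPM), whereas footprints were 20.4 to 45.5 CPM and 69.3 to 95.7 CPM.

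The difference between the lines was tested as an interaction of line and assay, in which 0.0132% of 15208 genes were called and 0 of the 10. Without adjustment, 2 of the 10, Ppp1r15b and Pck2, had a p under 0.05, and 7.65% of all genes did, and DESeq2 called 0 of the 10. For Ppp1r15b it was log2 1.43 (SE 0.296, adjusted p = 0.243 by edgeR's quasi-likelihood test), at percentile 95.5 of all genes. With the animal as a block, since footprints and RNA came from the same lysate, it was 1.53 (adjusted p = 0.00501) and Ppp1r15b was called. Without animal 3 of the 3g line it was 1.98 (adjusted p = 0.0116). The animals of each line were counted in separate tables, so line and processing set cannot be told apart.

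Trib3 (ENSMUSG00000032715, chr2:152337425-152344060), a pseudokinase that is induced by ATF4 and CHOP and dampens them, was too scarce to place. It had 8 to 40 lysate RNA counts and 0 to 2 footprints in each wt animal, and its log2 ratio of 1.03 had an SE of 0.562 (adjusted p = 0.121). A count of 0, seen in animal 3 of the 16p11.2 line, allows up to 3 counts at this depth.

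Among the metabolic genes, Asns and Pck2 had more footprints for their RNA than most genes. Asns (ENSMUSG00000029752, chr6:7675165-7693209), asparagine synthetase, had ratios of 1.78, 1.65 and 2.21 in the 3g wt animals and 1.14, 0.716, 1.64 and 1.95 in the 16p11.2 wt animals. Animal 2 of the 16p11.2 line, with 5 footprints, was the only one under 1. The log2 ratio was 0.71 (SE 0.198, adjusted p = 0.00332), at percentile 73.1.

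Pck2 (ENSMUSG00000040618, chr14:55540263-55550020), the mitochondrial phosphoenolpyruvate carboxykinase, had ratios of 7.67, 3.75 and 2.49 in the 3g wt animals and 1.21, 0.997, 2.002 and 1.49 in the 16p11.2 wt animals. Its footprint counts were 28, 15 and 12 against 4, 4, 7 and 5, so the 3g wt animals were the higher ones without overlap. The share of all genes for which this holds was not counted. The log2 ratio over both lines was 1.48 (SE 0.290, adjusted p = 0.000104), at percentile 88.8, and 0.98 without animal 1 of the 3g line. The difference between the lines was -1.68 (SE 0.458, adjusted p = 0.433 by edgeR's quasi-likelihood test), and -1.08 without the same animal.

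Psat1 (ENSMUSG00000024640, chr19:15905123-15925059) and Phgdh (ENSMUSG00000053398, chr3:98313171-98339969), successive enzymes of serine synthesis, were not called. The log2 ratio was -0.10 for Psat1 (SE 0.171, adjusted p = 0.623) and 0.07 for Phgdh (SE 0.345, adjusted p = 0.877). Phgdh had 1 to 6 footprints in each wt animal, and its ratios ran from 0.303 to 1.95.

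Thus 3 of the 10 genes passed the test in the wt animals of both lines, Asns and Pck2 above the average gene and Ddit3 below it. Over all genes tested, 59.0% were called, 29.5% higher and 29.4% lower, so the share among the 10 was below the background. Within the 3g line alone, 4 of 10 were called (44.3% of all genes): Asns at 0.94 and Pck2 at 2.17 higher, Ddit3 at -2.06 and Ppp1r15b at -0.68 lower. The Ppp1r15b call was lost without animal 1 (-0.57, adjusted p = 0.188) or animal 2 (-0.42, adjusted p = 0.302), and the Asns call without animal 3 (0.81, adjusted p = 0.0815). Within the 16p11.2 line, 1 of 9 tested was called (46.6% of all genes), Ppp1r15b at 0.81 higher (adjusted p = 0.000463). Ddit3 there lay at -0.92 (adjusted p = 0.0524), at -1.01 with the animal as a block (adjusted p = 0.00280), at -1.86 without animal 3 (adjusted p = 0.00284) and at -0.44 without animal 4 (adjusted p = 0.344). Asns at 0.51 (SE 0.292, adjusted p = 0.165) and Pck2 at 0.54 (SE 0.372, adjusted p = 0.244) were not called in the 16p11.2 line.

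These ratios depend on scaling each assay to its average gene. Without TMM, on library totals alone, the median log2 ratio of all genes moved from 0.03 to 0.42, and 7 of the 10 genes were called, 6 higher and 1 lower, beside 59.6% of all genes (5950 higher and 2580 lower). Ddit3 then lay at -0.92 and Pck2 at 1.89. In the 3g line alone the median of all genes moved from -0.01 to 0.61, and Ppp1r15b from -0.68 to -0.05 (adjusted p = 0.892).

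Other genes of the pathway showed where the 10 lay. Of 29 other ATF4 targets tested, 9 were higher and 4 lower, with a median log2 ratio of 0.49. The highest called were Aldh1l2 (1.45), a mitochondrial folate enzyme, and Cebpb (1.39), a transcription factor, and the lowest were Cebpg (-1.50), a dimer partner of ATF4, and Slc7a11 (-1.27), the cystine transporter. Of 20 tRNA synthetase genes, some of which ATF4 also raises, 7 were higher and 3 lower (median 0.31), from Dars (-0.80) and Nars (-0.66) to Cars (1.30) and Mars1 (1.49).

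Of 9 other genes known for uORF control, 2 were higher and 5 lower, with a median of -0.47. The lowest were Ptp4a1 (-2.64), a phosphatase whose symbol stands on more than 1 gene model and is uncertain here, and Amd1 (-2.08), an enzyme of polyamine synthesis. The highest were Cebpb, which is on both lists, and Cebpa (1.21). Of the 4 eIF2 kinases, Eif2ak3, which encodes PERK, was higher (1.39) and the other 3 were not called.

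The subunits of eIF2 itself, Eif2s3x (-1.79), Eif2s2 (-1.39) and Eif2s1 (-1.37), were all lower. Of the 5 subunits of its exchange factor eIF2B, Eif2b5 was higher (0.78) and the others were not called. Of 16 genes of the ATF6 and XBP1 arm of the unfolded protein response, 8 were higher and 4 lower (median 0.73), with Sdf2l1 (1.63) and Creld2 (1.48) highest and Dnajb9 (-1.60) and Atf6 (-1.55) lowest. The median over all genes tested was 0.03, and the quartiles were -0.71 and 0.78.

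**Figure D2:**
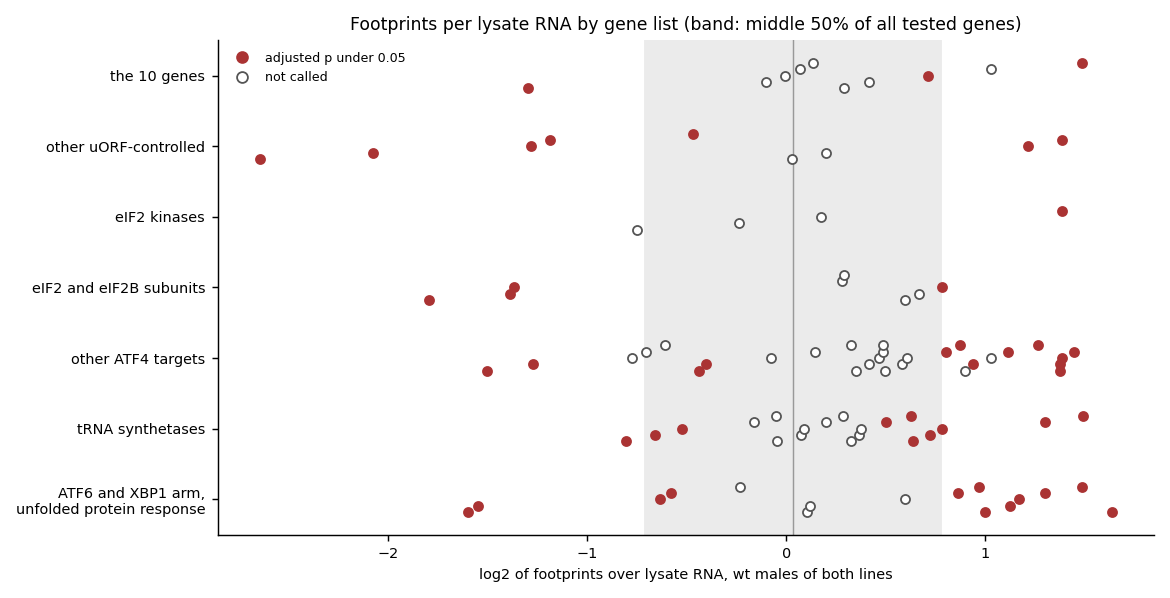
The log2 of footprints over lysate RNA in the 7 wt males (x axis) for each gene of the 10 and of 6 related lists, red where the adjusted p was under 0.05 and open where it was not, over a grey band from -0.71 to 0.78 that holds the middle of all genes. Every list holds genes on both sides of 0, and the 3 eIF2 subunits lie left of the band at -1.79 to -1.37.

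The promoters of the 10 genes were read for the composite C/EBP-ATF element that ATF4 binds, spelled TGATGNAA and searched on both strands. RefSeq promoters (GRCm38.p6) were given for 9 of the 10, as 11 promoter entries. In the 250 bases before the start, 2 of the 9 genes held a match, Asns and Pck2, in 1 entry each. Over all 32851 promoters, 3.45% held one. Every window that held a match is shown. A match is a description and not a sign of binding, and it was not tested against the footprint ratios. The sequences run 5′ to 3′ on the gene's own strand, with the matched letters in capitals.
Asns, minus strand, chr6:7693210-7693258: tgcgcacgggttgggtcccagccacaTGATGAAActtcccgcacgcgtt
Pck2, plus strand, chr14:55540137-55540196: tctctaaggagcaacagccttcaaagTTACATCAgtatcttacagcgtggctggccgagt
The Asns match began 23 bases before the start, in the direction of the gene. The Pck2 match began 103 bases before the start, on the opposite strand, so its capitals are the reverse complement of the motif.

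The second question was whether the 3-gene mutation or the 16p11.2 hemideletion altered the RNA of these genes. By edgeR's quasi-likelihood test, 0 of the 10 genes passed an adjusted p of 0.05 in 3g males (0.0% of 19081 genes called), 3g females (0.00526% of 19024), 16p11.2 males (0.106% of 17957) or 16p11.2 females (0.144% of 18067). DESeq2 also called 0 of the 10 in each. At an unadjusted p under 0.05 there were 0, 1, 2 and 0 of the 10, beside 1.44%, 11.0%, 5.82% and 4.47% of all genes. The standard errors of these log2 fold changes ran from 0.0428 to 0.321, the smallest in 3g females.

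**Figure D3:**
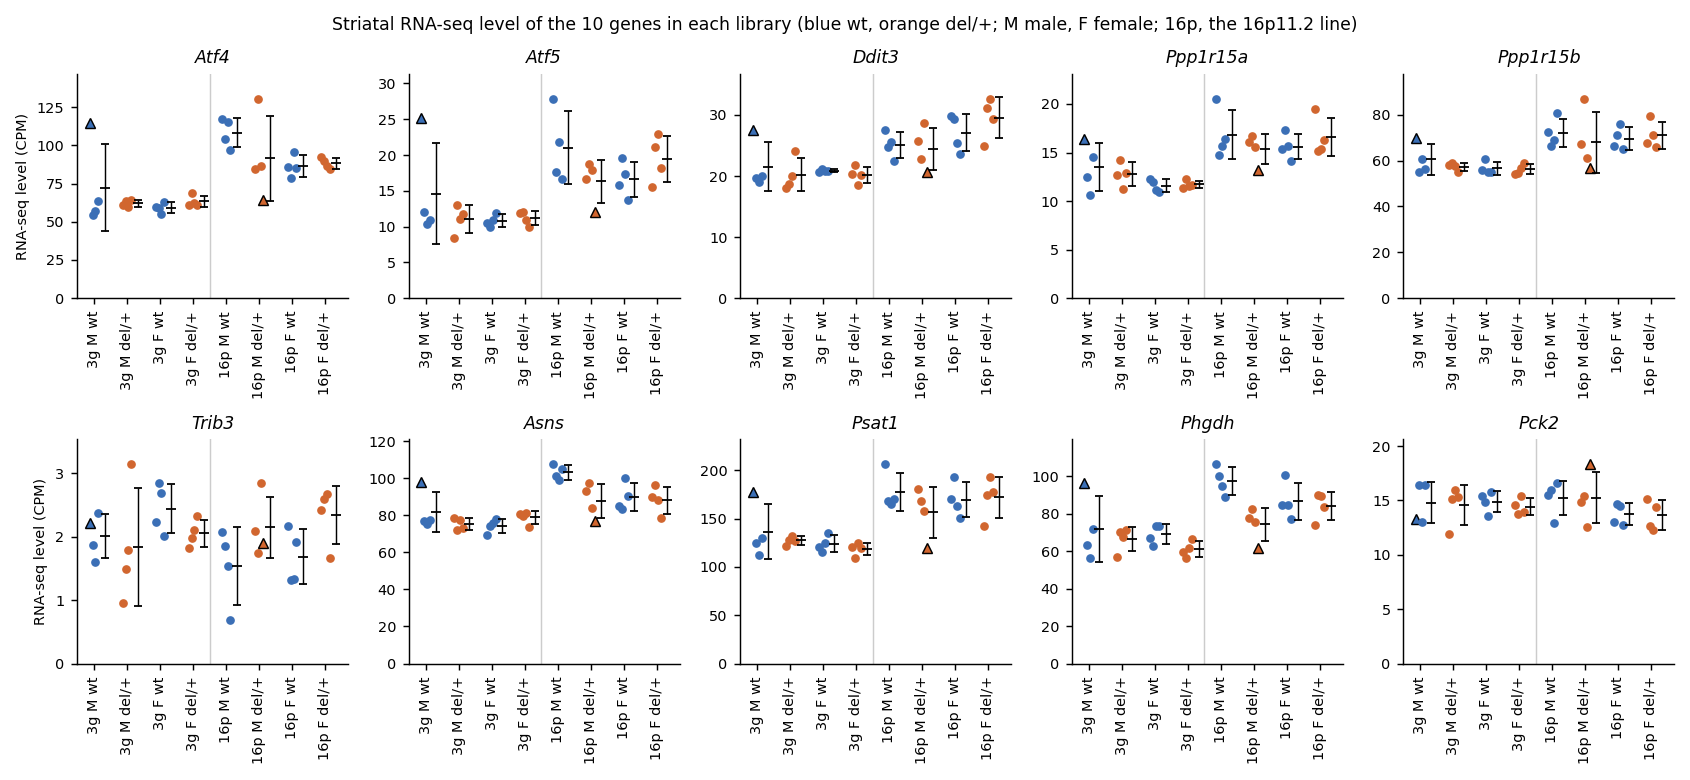
RNA-seq level in CPM (y axis from 0) of each of the 10 genes in each of the 32 libraries, blue for wt and orange for del/+, in males (M) and females (F) of the 3g and 16p11.2 (16p) lines, with bars and whiskers at mean and SD of 4 libraries. Triangles mark 3g wt male 17 and 16p11.2 del/+ male 4, which for Atf4 lie at 115 and 64.4 CPM, each near the other line.

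In 3g males, Atf4 was at 61.2, 63.5, 59.5 and 64.5 CPM in del/+ and at 115, 54.4, 56.9 and 63.4 CPM in wt. The first of the wt values is the library that lay with the 16p11.2 line, and the other 7 values overlapped. The log2 fold change of del/+ over wt was -0.21 (SE 0.207, adjusted p = 0.974), and 0.10 without that library (adjusted p = 1.000). Atf5 went from -0.38 to 0.02 in the same way. All 10 fold changes were below 0 with the library, with a median of -0.08 beside 0.00 over all genes, and 7 of 10 were above 0 without it, between -0.05 and 0.10. In that library, 8 of the 10 genes were higher than in its 3 group mates, the exceptions being Trib3 and Pck2. How many of all genes did so was not counted, and the library lay with the other line over 14959 genes.

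In 3g females, the fold changes ran from -0.24 for Trib3 to 0.09 for Atf4. Phgdh was at 59.8, 56.2, 61.9 and 66.8 CPM in del/+ and at 67.2, 62.9, 73.6 and 73.4 CPM in wt, which overlap. Its log2 fold change was -0.18 (SE 0.0623, adjusted p = 0.344), and an exact 2-sided permutation test gave p = 0.0571. Without wt female 39, 4 of the 10 (Atf4, Trib3, Asns and Phgdh) instead of 1 had an unadjusted p under 0.05. Over all genes, 3172 of 19125 instead of 2098 of 19024 did, and 175 instead of 1 were called. Of the cell type markers, 0 of 6 for oligodendrocytes (median -0.14), 0 of 4 for their precursors (-0.16), 0 of 6 for microglia (-0.09), 0 of 6 for endothelial cells (-0.08) and 0 of 4 for choroid plexus (-0.37) were above 0. Astrocyte markers were above 0 in 3 of 8 (median -0.02), those of projection neurons in 7 of 8 (0.03) and those of cortical neurons in 5 of 5 (0.78), and the part of any of these in the Phgdh value was not tested.

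In 16p11.2 males, Phgdh and Asns were lower in every del/+ library than in every wt library, where 2.15% of all genes were. Phgdh, the first enzyme of serine synthesis from glucose and in brain mostly made by astrocytes, was at 77.6, 82.4, 75.7 and 61.9 CPM in del/+ and at 106, 100.2, 95.1 and 88.9 CPM in wt. Its log2 fold change was -0.39 (SE 0.105, adjusted p = 0.742 by edgeR's quasi-likelihood test), and -0.31 without del/+ male 4. Asns was at 93.2, 97.5, 83.7 and 77.2 CPM in del/+ and at 108, 101, 98.9 and 105 CPM in wt. Its log2 fold change was -0.23 (SE 0.0927, adjusted p = 0.742), and -0.17 without del/+ male 4.

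For both genes the exact 2-sided permutation p was 0.0286, the smallest that 4 against 4 libraries can give, and neither passed correction over all genes. Without del/+ male 4 it was 0.0571 for both by the same exact test, the smallest that 3 against 4 can give. Astrocyte markers sat lower too. Of 8 markers, among them Aqp4, Gfap, Aldh1l1 and Slc1a3, 0 were above 0 in 16p11.2 males, with a median log2 fold change of -0.16 and 2 at an unadjusted p under 0.05. Their summed level was 4849 to 5558 CPM in del/+ and 5183 to 6768 CPM in wt, with no marker at 0. Without del/+ male 4, 1 of 8 was above 0 (median -0.12). Of the other markers, 2 of 8 for projection neurons (median -0.20), 2 of 6 for endothelial cells (-0.19), 1 of 6 for oligodendrocytes (-0.15), 1 of 6 for microglia (-0.13) and 0 of 3 for choroid plexus (-0.32) were above 0. Those of oligodendrocyte precursors (3 of 4, 0.09) and cortical neurons (3 of 5, 0.01) were not mostly below it. Without del/+ male 4 the medians were -0.51 for endothelial cells, 0.02 for oligodendrocytes and -0.08 for projection neurons, and the part of these markers in the Phgdh and Asns values was not tested.

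Atf4 in 16p11.2 males was at 84.6, 130.5, 86.8 and 64.4 CPM in del/+ and at 117, 104, 115 and 97.1 CPM in wt. The del/+ libraries held both the highest and the lowest value, and the log2 fold change was -0.24 (SE 0.181, adjusted p = 0.762), or -0.11 without del/+ male 4. That library, which lay near the 3g line over 14959 genes, was below its 3 group mates for 8 of the 10 genes, and above them for Pck2. The share of all genes that did so was not counted. Atf5 lay at -0.36 (adjusted p = 0.742) with it and at -0.24 without it. Trib3 lay at 0.48 (SE 0.321) and 0.53 without it, on 20 to 88 counts a library.

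In 16p11.2 females, the fold changes of 7 of the 10 genes were above 0, with a median of 0.03, and the largest were those of Trib3 at 0.45 (SE 0.223, adjusted p = 0.998) and Atf5 at 0.22 (SE 0.134, adjusted p = 0.998). Without the library labelled del/+ female 1, they were 0.43 and 0.31. In that setting 1 of the 10 instead of 0 had an unadjusted p under 0.05 by edgeR's quasi-likelihood test, beside 1117 of 18288 genes. Phgdh lay at -0.05 and Asns at -0.03, with all groups overlapping. Astrocyte markers here were above 0 in 8 of 8, with a median of 0.14, and of 0.22 without del/+ female 1. The median summed level was lower in del/+ for endothelial cells (119 against 150 CPM), projection neurons (6811 against 7204 CPM) and choroid plexus (10.8 against 13.7 CPM). For oligodendrocytes, their precursors, microglia and cortical neurons it was higher. These sums include del/+ female 1, overlapped between the genotypes and were not tested.

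**Figure D4:**
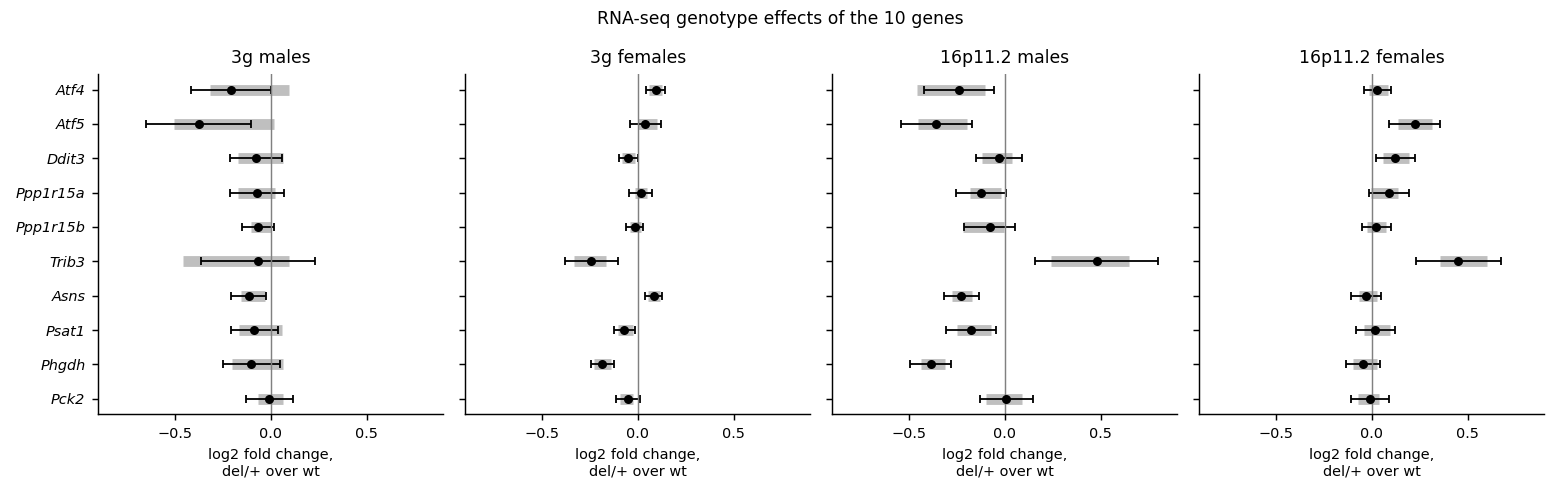
Log2 fold change of del/+ over wt (x axis) of RNA-seq for the 10 genes in each line and sex, as points with whiskers of 1 SE, over grey bars that span the values with each library left out in turn. In 3g males the grey bars of 8 genes cross 0, those of Asns and Ppp1r15b staying below it. In 16p11.2 males the bars of 7 genes stay below 0, that of Trib3 stays above it, and those of Ddit3 and Pck2 cross it.

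Whether the genotype effect differed between the sexes was tested as an interaction, and 0 of the 10 were called in the 3g line (0.0% of 19830 genes) and in the 16p11.2 line (0.0% of 18870). DESeq2 called 0 of the 10 in each. At an unadjusted p under 0.05 there were 0 and 2 of the 10, beside 2.69% and 4.33% of all genes. The 2 were Atf5 (0.58, SE 0.245, adjusted p = 0.835) and Phgdh (0.34, SE 0.137, adjusted p = 0.835), for which the log2 fold change was the higher one in females. Without del/+ male 4 these were 0.48 and 0.28, and without del/+ female 1 they were 0.68 and 0.40 (adjusted p = 0.674 for both).

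Between the sexes in wt, 0 of the 10 were called in the 3g line (0.0308% of 19458 genes) or the 16p11.2 line (0.0336% of 17831), and DESeq2 also called 0. Without adjustment, 0 and 2 (Atf4 and Asns) had a p under 0.05, beside 2.85% and 5.0% of all genes. In the 16p11.2 line, Atf4 was at 86.1, 78.7, 96.0 and 85.2 CPM in wt females and at 117, 104, 115 and 97.1 CPM in wt males, every female being below every male, as for 1.68% of genes. Its log2 difference of females over males was -0.33 (SE 0.0844, adjusted p = 0.775 by edgeR, exact permutation p = 0.0286). In the 3g line the difference in Atf4 was -0.28 (adjusted p = 0.948), but 0.02 without wt male 17.

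In most libraries, the levels of several genes differed more between the lines than between genotypes. Leaving out 3g wt male 17 and 16p11.2 del/+ male 4, Atf4 was at 54.4 to 68.6 CPM (median 61.2) in 15 libraries of the 3g line and at 78.7 to 130.5 CPM (median 90.1) in 15 of the 16p11.2 line. Atf5, Ppp1r15b, Psat1 and Phgdh also did not overlap, and all 5 were higher in the 16p11.2 line. Over all 18552 genes, 14.0% were higher in every 16p11.2 library and 11.4% lower. For Pck2 the lines overlapped, at 11.9 to 16.5 CPM and 12.3 to 16.6 CPM. The libraries left out were chosen because they lay with the other line, which in itself favours a lack of overlap. With them, all 5 genes overlapped between the lines. By its Taok2, 16p11.2 del/+ male 4 is a 16p11.2 deletion library. All 16p11.2 del/+ libraries were at 94.9 CPM of Taok2 or less, and all 3g libraries at 156 CPM or more. The lack of overlap therefore holds only when a library of the 16p11.2 line is left out. Atf4 was at 115 CPM in 3g wt male 17 and at 64.4 CPM in 16p11.2 del/+ male 4. The lines were counted in separate tables, so line, sequencing set and processing cannot be told apart. Marker sums differed between the lines as well. Again in 15 libraries of each line, the 6 oligodendrocyte markers summed to 4071 to 7281 CPM in the 3g line and 8527 to 14070 CPM in the 16p11.2 line. The 8 astrocyte markers summed to 4207 to 4644 CPM and 4761 to 6768 CPM, and the 5 cortical neuron markers to 34.2 to 624 CPM and 740.0 to 1304 CPM. These 3 did not overlap, whereas sums of the other 5 marker lists did, and their part in the line difference was not tested.

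The third question was whether the genotypes altered these genes in the lysate, in ribosome footprints or in the ratio of both, in males. In lysate RNA, 0 of the 10 were called in the 3g line (0.0209% of 14378 genes) or the 16p11.2 line (0.133% of 14330), and DESeq2 called 0. Without adjustment, 1 (Atf5, 0.39) and 0 had a p under 0.05, beside 4.92% and 4.41% of all genes. Phgdh in the 3g line was at 4.10, 5.05 and 5.44 CPM in del/+ and at 6.38, 6.13 and 5.83 CPM in wt, below without overlap as were 5.52% of genes, with a log2 fold change of -0.33 (SE 0.188, adjusted p = 0.940). In 16p11.2 lysates, it lay at -0.03 (SE 0.194, adjusted p = 0.996), with overlap. Asns lay there at -0.28 (SE 0.166, adjusted p = 0.990). Trib3 in 16p11.2 lysates was at 0.804, 0.793 and 1.27 CPM in del/+ and at 0.674, 0.696, 0.752 and 0.593 CPM in wt, above without overlap as were 3.81% of genes, with a log2 fold change of 0.46 (SE 0.397, adjusted p = 0.990) on 8 to 15 counts.

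In footprints, the low depth left 5 of the 10 genes tested in the 3g line (Atf4, Ppp1r15b, Asns, Psat1 and Pck2) and 4 in the 16p11.2 line (Atf4, Atf5, Ppp1r15b and Psat1). By edgeR's quasi-likelihood test, 0 were called in either, where 0.0132% of 7553 and 0.117% of 5964 genes were, and DESeq2 called 0. At an unadjusted p under 0.05 there were 2 in the 3g line (Ppp1r15b and Pck2) and 0 in the 16p11.2 line, beside 7.97% and 6.15% of all genes. All 3 footprint libraries of 3g del/+ were deeper than those of 3g wt, and CPM corrects only the scale.

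Pck2 had the largest difference. Its footprints were at 7.92, 8.70 and 11.4 CPM (5, 8 and 9 counts) in 3g del/+ and at 52.0, 27.9 and 22.7 CPM (28, 15 and 12 counts) in 3g wt. Every del/+ value was below every wt value, as for 4.86% of genes. The log2 fold change was -1.93 (SE 0.440, adjusted p = 0.249 by edgeR's quasi-likelihood test), and the exact 2-sided permutation p was 0.1, the smallest that 3 against 3 animals can give. It was -1.47 without wt animal 1, and with genes of low counts kept in the test it was -1.86 and called (adjusted p = 0.00850).

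Pck2 lysate RNA of the same animals was at 7.22, 5.32 and 4.94 CPM in del/+ and at 6.79, 7.44 and 9.13 CPM in wt, which overlap (log2 -0.41, SE 0.194, adjusted p = 0.940). The footprint to RNA ratio was 1.10, 1.64 and 2.30 in del/+ against 7.67, 3.75 and 2.49 in wt. These did not overlap, but the share of all genes whose ratios did not was not counted. As an interaction of genotype and assay its difference was -1.50 (SE 0.474, adjusted p = 0.506), and -0.95 without wt animal 1. Footprints of the 6 endothelial markers summed to 173 to 203 CPM in these del/+ animals and to 229 to 563 CPM in wt, without overlap, while their lysate RNA summed to 58.0 to 66.0 CPM and 64.2 to 71.4 CPM. Their ratio difference had a median of -0.65 (2 of 6 above 0), and their part in the Pck2 value was not tested. In RNA-seq of 3g males, Pck2 lay at -0.01. In the 16p11.2 line, Pck2 footprints were at 2, 3 and 3 counts in del/+ and 4, 4, 7 and 5 in wt, below without overlap in CPM. Of the 5964 genes tested there, which do not include Pck2, 3.91% were below without overlap. The ratio difference of Pck2 was -0.55 (SE 0.603, adjusted p = 0.935). Endothelial marker footprints in the 16p11.2 line went the other way than in the 3g line. They summed to 284 to 384 CPM in del/+ and to 189 to 285 CPM in wt.

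Ppp1r15b footprints in the 3g line were at 53.9, 71.8 and 45.5 CPM in del/+ and at 24.2, 20.4 and 45.5 CPM in wt. The groups met at the last value of each, and the log2 fold change was 0.86 (SE 0.333, adjusted p = 0.511). As a ratio to lysate RNA it was 0.85 (SE 0.315, adjusted p = 0.530). In the 16p11.2 line it lay at 0.37 (SE 0.236, adjusted p = 0.897) in footprints and 0.25 in the ratio.

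Ddit3 had too few footprints for the test in the 3g line, at 7, 14 and 13 counts in del/+ and 5, 2 and 2 in wt. In CPM these were 11.1, 15.2 and 16.4 against 9.29, 3.72 and 3.79, above without overlap (exact permutation p = 0.1). Of the 7553 genes tested, which are better covered and do not include Ddit3, 9.18% were above without overlap. The ratio difference was log2 1.10 (SE 0.556, adjusted p = 0.675). In the 16p11.2 line, where both groups held 1 high animal, 29.2 CPM in del/+ and 31.5 CPM in wt, it was 0.23 (SE 0.586).

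Atf4 footprints were at 61.8, 47.9 and 79.6 CPM in 3g del/+ against 44.6, 59.5 and 49.3 CPM in wt, and at 78.0, 68.5 and 85.2 CPM in 16p11.2 del/+ against 49.5, 45.8, 61.1 and 71.3 CPM in wt. Both pairs of groups overlapped. The log2 fold changes were 0.22 (SE 0.270, adjusted p = 0.884) and 0.46 (SE 0.258, adjusted p = 0.83). As a ratio to lysate RNA they were 0.09 (SE 0.264) and 0.26 (SE 0.252), so an altered translation of Atf4 was not detectable at this depth.

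**Figure D5:**
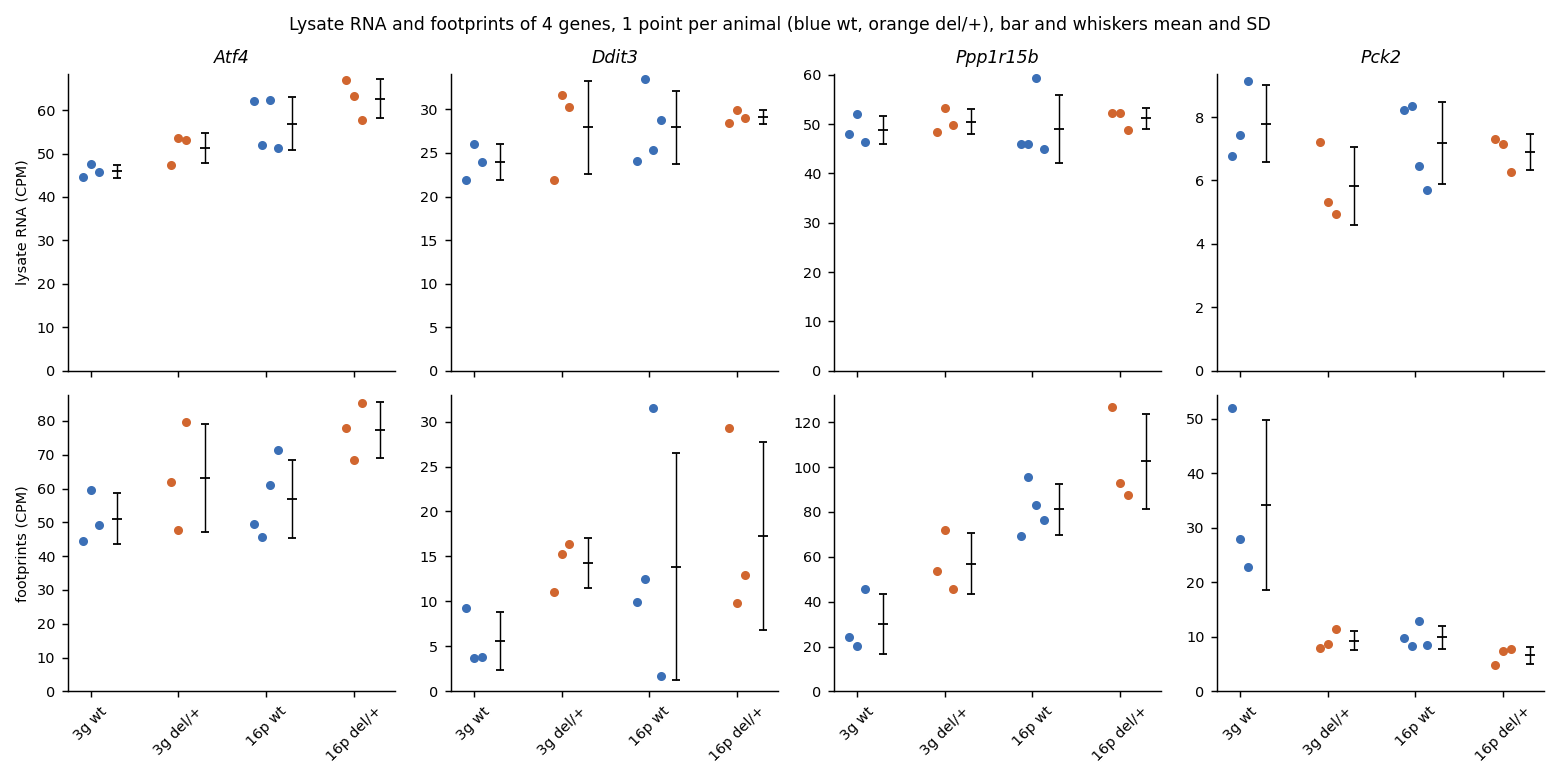
Lysate RNA (upper row) and footprints (lower row) in CPM, axes from 0, of Atf4, Ddit3, Ppp1r15b and Pck2, 1 point per male animal, blue for wt and orange for del/+, with mean and SD. Pck2 footprints of the 3 wt animals of the 3g line sit at 22.7 to 52.0 CPM, above all other animals, while their lysate RNA at 6.79 to 9.13 CPM overlaps the other groups.

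In the ratio of footprints to lysate RNA, 0 of the 10 were called for the genotype in the 3g line (0.0% of 15137 genes) or the 16p11.2 line (0.00664% of 15071), and DESeq2 called 0. At an unadjusted p under 0.05 there were 3 in the 3g line, Pck2, Ppp1r15b and Atf5, and 0 in the 16p11.2 line, beside 7.67% and 6.24% of all genes. For Pck2 and Ppp1r15b, the difference between the lines used the same 3g wt animals, so these results are not independent. The Pck2 ratios of 3g del/+ (1.10 to 2.30) overlapped those of 16p11.2 wt (0.997 to 2.002). The Ppp1r15b ratios of 3g del/+ (0.912 to 1.35) lay below those of 16p11.2 wt (1.40 to 2.08). Atf5 had a ratio difference of -1.18 (SE 0.506, adjusted p = 0.606), from 0.989, 0.488 and 0.405 in del/+ against 1.93, 1.37 and 0.408 in wt, which overlap. Beside these 3 and Ddit3, the other 6 genes lay between -1.16 and 0.47 in the 3g line, and all 10 between -0.63 and 0.96 in the 16p11.2 line, from Psat1 to Trib3.

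No gene of the 6 related lists was called in any genotype comparison. In 16p11.2 males, 6 of 30 other ATF4 targets had an RNA-seq fold change above 0 (median -0.17), and 2 of 20 tRNA synthetase genes did (median -0.08), beside a median of -0.01 over all genes. Without del/+ male 4 the counts were the same, with medians of -0.17 and -0.10. In 16p11.2 females the counts were 14 of 30 (median -0.02) and 2 of 20 (median -0.11), and without del/+ female 1 they were 12 of 30 (-0.02) and 2 of 20 (-0.12). In lysates of 16p11.2 males they were 17 of 29 (median 0.09) and 7 of 20 (median -0.06), so the median of the targets lay on the other side of 0 than in RNA-seq. The ATF6 and XBP1 arm, which restores folding capacity in the endoplasmic reticulum, did the same, with 3 of 16 above 0 in RNA-seq (median -0.18, and -0.22 without del/+ male 4) and 13 of 16 in lysates (0.23). For the eIF2 and eIF2B subunits the values were 1 of 8 (-0.11, and 3 of 8 without del/+ male 4) and 6 of 8 (0.08), and for other uORF-controlled genes 4 of 9 (-0.01) and 8 of 9 (0.12). Markers differed between the assays too. Those of astrocytes were above 0 in 0 of 8 in RNA-seq and in 6 of 8 in lysates (median 0.10), and those of cortical neurons in 3 of 5 and in 0 of 5 (-0.23), and their part in these counts was not tested. The summed astrocyte level in these lysates was not higher in del/+. It was 4761 to 5387 CPM (median 4898) in del/+ and 4595 to 5536 CPM (median 5378) in wt.

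In 3g males, 12 of 30 targets and 7 of 20 synthetase genes were above 0, with medians of -0.02 and -0.03. Without wt male 17 these were 17 of 30 (0.02) and 9 of 20 (-0.01). Markers of cortical neurons went from 0 of 5 above 0 (median -0.59) to 5 of 5 (0.54) and those of oligodendrocytes from 1 of 6 (-0.03) to 6 of 6 (0.23) when that library was left out, and their part was not tested.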

How the data were processed

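The authors deposited raw counts per gene for each library. RNA-seq libraries were made from ribosomal RNA-depleted total RNA and processed with bcbio-nextgen, per the study's methods, and the submitters' processing notes name HTSeq and mm10 there and Bowtie2 and mm39 for footprints and lysate RNA. Versions, annotation and counted regions are not given in the sources used here. The count tables are whole numbers, and 123 gene identifiers (RNA-seq) and 34 (lysate and footprint) had no symbol. Counting error is largest for footprints, with library totals of 342052 to 678130.

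Each comparison was fitted over all genes that passed filterByExpr with edgeR 4.0.16 (R 4.3.3, limma 3.58.1): TMM scaling, the quasi-likelihood test and Benjamini-Hochberg adjustment, with a call at an adjusted p under 0.05. Footprints per lysate RNA are the contrast or interaction of assay in 1 model over both kinds of library. Single values were checked with 2-sided exact permutation tests of mean CPM. The scripts were tested on simulated data. Alternatives were DESeq2 1.42.0, RLE scaling, library totals without TMM, no filter on low counts, each library left out, 1 fit over all libraries of a line, and the replicate block. A sum of both Ddit3 gene models, and list counts, marker sums and exact tests without the libraries that stood apart, were added after the data were seen.

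Footprint and lysate RNA libraries of 1 animal number come from the same lysate, so the numbers pair them, and their deviations from group means correlated at 0.0452 to 0.138. Where 1 symbol stood on several gene models, the one with the lowest identifier was used.

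The 10 genes and the lists were chosen with earlier results of these data known. All 10 are named throughout. Of each related list, genes called in any genotype comparison and, for the wt ratio, the 2 highest and 2 lowest called genes are named. The genes most like Atf4 and Asns are the 3 with the highest Pearson correlation of log2 CPM (prior count 2), as deviations from group means.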

Additional observations from a re-analysis of the deposited data

Results flagged for a closer look

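Among 110 groups of 4 samples tested for a sample far from the other 3, 9 held one, and chance gives about 1 in 20. Of these, 4 were the library labelled 3g wt male 17, which also lay with the other line: Atf4 at 115 CPM (others 54.4 to 63.4), Atf5 at 25.2 CPM (others 10.4 to 11.98), Ddit3 at 27.6 CPM (others 19.0 to 19.96) and Asns at 98.1 CPM (others 75.5 to 77.4). In 3g del/+ females, Atf4 was at 68.6 CPM in female 31 (others 61.2 to 62.4). In 3g wt females, Ppp1r15b was at 60.9 CPM in female 30 (others 54.8 to 55.7). In 16p11.2 wt lysates, Ppp1r15b was at 59.3 CPM in animal 3 (others 44.98 to 45.9), and in 16p11.2 wt males Psat1 was at 206 CPM in male 1 (others 165 to 170). The Psat1 footprint to RNA ratio was 1.41 in 16p11.2 wt animal 4 (others 0.727 to 0.777).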

How the results depend on the processing

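Of 223 recomputed counts of called genes among the 10, over 18 comparisons, 216 stayed within 1.5 times the reported count. With genes of low counts kept, 1 gene (Pck2) was called in 3g footprints instead of 0, and 2 in the 16p11.2 wt ratio instead of 1. With the replicate block, 2 were called in the 16p11.2 wt ratio (Ddit3 added) and 1 in the difference between lines (Ppp1r15b), and the block changed no other call. Leaving out 1 animal gave 1 to 2 in the 16p11.2 wt ratio (2 without animal 3) and 0 to 1 in the difference between lines (1 without animal 3 of the 3g line). On library totals without TMM, 7 were called in the wt ratio of both lines instead of 3. Of 2102 recomputed single-gene values, 0 called values changed sign, 4 lost a call, 14 gained one, and 152 took the other sign while called in neither.

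No paired analysis was possible because 3g del/+ and wt RNA-seq libraries share no replicate numbers. The 16p11.2 RNA-seq numbers did not pair the libraries (correlations -0.280 to 0.104), and the block called 0 of the 10 there. Over all genes, counts moved more: in 3g females 1 became 109 with DESeq2, 158 with low counts kept, 18 without del/+ female 37 and 175 without wt female 39. In 16p11.2 males 19 became 37 with DESeq2, and in females 26 became 50, or 45 with low counts kept. In 3g footprints 1 became 13 with DESeq2 and 127 with low counts kept, and in 16p11.2 footprints 7 became 21 and 43. For the genotype effect on the ratio, 0 became 26 with DESeq2 and 43 with the block in the 3g line, and 1 became 4 and 13 in the 16p11.2 line. For the difference between lines 2 became 45 with DESeq2 and 48 with the block. On library totals the 3g wt ratio split 5239 higher and 1486 lower, instead of 2874 and 3311. Footprint counts were under 10 in at least 1 animal for Atf5, Ddit3, Ppp1r15a, Trib3, Asns, Psat1, Phgdh and Pck2, which limits their ratios.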

Other observations

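Across the 32 RNA-seq libraries, as deviations from their group means, the genes whose levels were most like Atf4 among 18552 were Spata2 (Pearson 0.924), Chchd6 (0.892) and Mob2 (0.892). Without 3g wt male 17 and 16p11.2 del/+ male 4 these were 0.769, 0.602 and 0.587, and over those 30 libraries Map2k3 (0.811), Pofut2 (0.810) and Dnajb5 (0.802) were the most like. For Asns they were Rraga (0.880), Elp3 (0.879) and Acot9 (0.874), and Rraga stayed highest without those libraries (0.815). All libraries share the tissue and the depth scale, so these are descriptions.

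Among the 10 genes themselves, Psat1 and Phgdh moved together most closely, at 0.876 over 32 libraries and 0.774 over 30. Atf4 and Asns stood at 0.736 and 0.412, and Atf4 and Psat1 at 0.573 and -0.0893, so the resemblance of Atf4 to the serine enzyme in the full set rested on those 2 libraries.

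The assays gave unlike levels for some of the genes, in tables that were made and scaled separately. Phgdh was at 56.2 to 106 CPM in RNA-seq and at 4.10 to 6.38 CPM in lysate RNA, and Asns at 69.3 to 108 CPM and 10.4 to 17.4 CPM. Atf4, at 54.4 to 130.5 CPM and 44.6 to 66.9 CPM, and Ddit3, at 18.0 to 32.6 CPM and 21.8 to 33.5 CPM, were much closer in both.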
